A study of Mus musculus with 14 samples.

Results

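A set of 8 genes of the TGF-beta system, here 3 ligands, 3 receptors and 2 inhibitory SMADs, were followed across mouse corneal stroma and cells grown from it. The members were all probe sets whose annotated symbol was Tgfb1, Tgfb2, Tgfb3, Tgfbr2, Tgfbr3, Eng, Smad6 or Smad7. These were 9 probe sets of 8 genes, among 12422 probe sets without controls, whose unambiguous symbols name 8251 genes, with 2 for Tgfb3 and 1 for each other gene. The filter on low signals, a mean of 50 or more in at least 1 group, kept 8 of the 9.

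Total RNA was measured on Affymetrix MG_U74Av2 arrays, 14 in all, from CD-1 mice or from primary cultures of their corneal stromal cells. Myofibroblast cultures (3 arrays) were grown from stroma of mice 7 to 8 weeks old in DMEM with 10% fetal bovine serum and 10 ng/ml TGF-beta1. Fibroblast cultures (3 arrays) had the same source and serum without added TGF-beta1, and keratocyte cultures (3 arrays) had the same source in DMEM with 1% platelet-poor horse serum. Adult stroma (3 arrays) was dissected at 7 to 8 weeks and P10 stroma (2 arrays) at postnatal day 10. Each comparison between cultures therefore changes serum, added TGF-beta1 or both, and culture against tissue also sets cells in a dish against whole dissected stroma. The factor added to myofibroblast cultures was a protein, whereas the arrays measured the transcripts of the cells themselves.

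TGF-beta ligands are secreted in a latent form and, once released, bind the type II receptor Tgfbr2, which activates the type I receptor and through it the transcription factors Smad2 and Smad3. Tgfbr3 (betaglycan) and Eng (endoglin) are co-receptors that present ligand, and Smad6 and Smad7 are inhibitory SMADs, of which Smad7 blocks TGF-beta receptors and Smad6 mainly BMP receptors. In the cornea TGF-beta is known for turning quiescent keratocytes into contractile myofibroblasts during scarring.

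Promoter windows of members are shown because they differ in the core elements they hold and set out where the genes lie. RefSeq on GRCm38.p6 gave a promoter for 5 of the 8 genes (Tgfb1, Tgfb2, Tgfbr2, Eng and Smad6), read here from 250 bases before the transcription start to 30 bases from the start on, 280 bases in all. Capitals mark, on either strand, the GC box GGGCGG, the TATA box TATAAA, the E-box CACGTG and the palindromic SMAD box GTCTAGAC. Tgfb1 is at chr7:25686752-25687031 on the plus strand, Tgfb2 at chr1:186705960-186706239 on the minus strand and Smad6 at chr9:64022030-64022309 on the minus strand.
Tgfb1: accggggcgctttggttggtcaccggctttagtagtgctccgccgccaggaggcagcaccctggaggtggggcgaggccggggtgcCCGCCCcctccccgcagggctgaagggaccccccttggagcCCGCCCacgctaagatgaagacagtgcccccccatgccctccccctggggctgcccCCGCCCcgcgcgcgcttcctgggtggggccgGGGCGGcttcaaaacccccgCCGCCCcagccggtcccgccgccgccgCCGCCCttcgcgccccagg
Tgfb2: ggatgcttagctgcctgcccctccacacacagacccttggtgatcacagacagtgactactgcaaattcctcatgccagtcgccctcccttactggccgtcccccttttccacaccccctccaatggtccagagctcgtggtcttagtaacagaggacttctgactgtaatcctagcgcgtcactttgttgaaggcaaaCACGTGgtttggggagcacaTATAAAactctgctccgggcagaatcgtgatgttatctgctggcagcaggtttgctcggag
Smad6: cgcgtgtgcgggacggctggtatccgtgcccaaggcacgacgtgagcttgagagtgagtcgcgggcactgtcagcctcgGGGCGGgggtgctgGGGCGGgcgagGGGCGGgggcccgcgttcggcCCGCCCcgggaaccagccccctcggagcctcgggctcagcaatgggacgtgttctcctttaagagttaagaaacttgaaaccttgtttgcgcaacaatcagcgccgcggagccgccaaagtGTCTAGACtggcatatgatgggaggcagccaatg

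The Tgfb1 window was 76.8% G and C, with 6 GC boxes and none of the other capital motifs, against a median of 52.5% G and C over 32851 promoters. Tgfb2, at 53.9%, held a TATA box 31 bases and an E-box 51 bases before the start, and no GC box. Smad6, at 65.4%, held 4 GC boxes and 1 palindromic SMAD box, which began 4 bases before the start and ran across it. Among all promoters, 34.7% held a GC box, 13.1% the TATA box, 6.79% the E-box and 0.192% the palindromic SMAD box. The motif matches did not overlap one another. The shorter SMAD motif CAGAC was present in 2 copies each in the Tgfb2 and Eng windows and 1 in that of Tgfbr2, and in 46.8% of all promoters. The AP-1 motif TGANTCA was in none of the 5 windows and in 7.46% of all. The Eng window (chr2:32646345-32646624, plus strand, 63.2% G and C) and the Tgfbr2 window (chr9:116175334-116175613, minus strand, 59.6%) held none of the motifs marked in capitals. Matches describe these letters and not bound sites.

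Values are deposited probe set signals, a hybridisation intensity on a linear scale, and signals of different probe sets were not compared. A group of 19 control probe sets, whose spike-in transcripts the samples lacked, gave a 95th percentile of 137.7, which served as the background limit. Array medians ran from 102 to 135.6 and the correlation of log2 signals within a group from 0.910 to 0.987. Adult replicate 1 stood apart in RNA quality, with a ratio of 3' to 5' signal of 2.12 for Gapdh and 4.05 for Actb, against 0.756 to 1.04 and 1.06 to 1.77 on the other 13 arrays. The tissue held epithelium: the summed signal of 26 corneal epithelial markers was 1180 to 1433 in myofibroblast, 1152 to 1392 in fibroblast and 1652 to 1770 in keratocyte cultures, against 31029 to 38383 in adult and 31798 to 32738 in P10 stroma. Of the keratocyte markers, Aldh3a1 averaged 15.4 ± 25 in myofibroblast, 1570 ± 1890 in fibroblast and 2080 ± 1840 in keratocyte cultures, 6770 ± 631 in adult and 6730 ± 474 in P10 stroma (SD), and Kera was below background on every myofibroblast and fibroblast array. Against adult stroma, 2 of 10 keratocyte markers were higher and 5 lower in myofibroblast cultures, where 17.5% and 15.5% of all probe sets were. In fibroblast cultures 2 were higher and 3 lower, where 18.4% and 12.3% of all probe sets were. Dcn was among those higher in both, at 4714 ± 418 and 5136 ± 438 against 3491 ± 292. Between keratocyte cultures and adult stroma 4 of 10 keratocyte markers were higher and 1 lower. Of smooth muscle and pericyte markers 4 of 8 were higher and 3 lower. Of pigment cell markers 4 of 5 were higher, and 3 of 6 lens and 8 of 10 retina markers were lower. Of all probe sets, 21.8% were higher and 9.25% lower between these groups. In such bulk RNA, fewer cells of a type and less RNA per cell cannot be told apart. Nothing in the labels says that replicates came from separate cultures or animals, so p-values measure the spread between these arrays.

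Differences were fitted with limma on log2(signal + 16) over all 14 arrays and are given as log2 difference ± SE. P-values are two-sided and adjusted by Benjamini-Hochberg over 10370 probe sets, and an adjusted p below 0.05 was called. Where the dimmer group was below background on every array, the brighter group is set against the background limit as "at least N-fold" on the same scale, and no fold is given if the brighter group's mean did not exceed that limit.

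**Figure D1:**
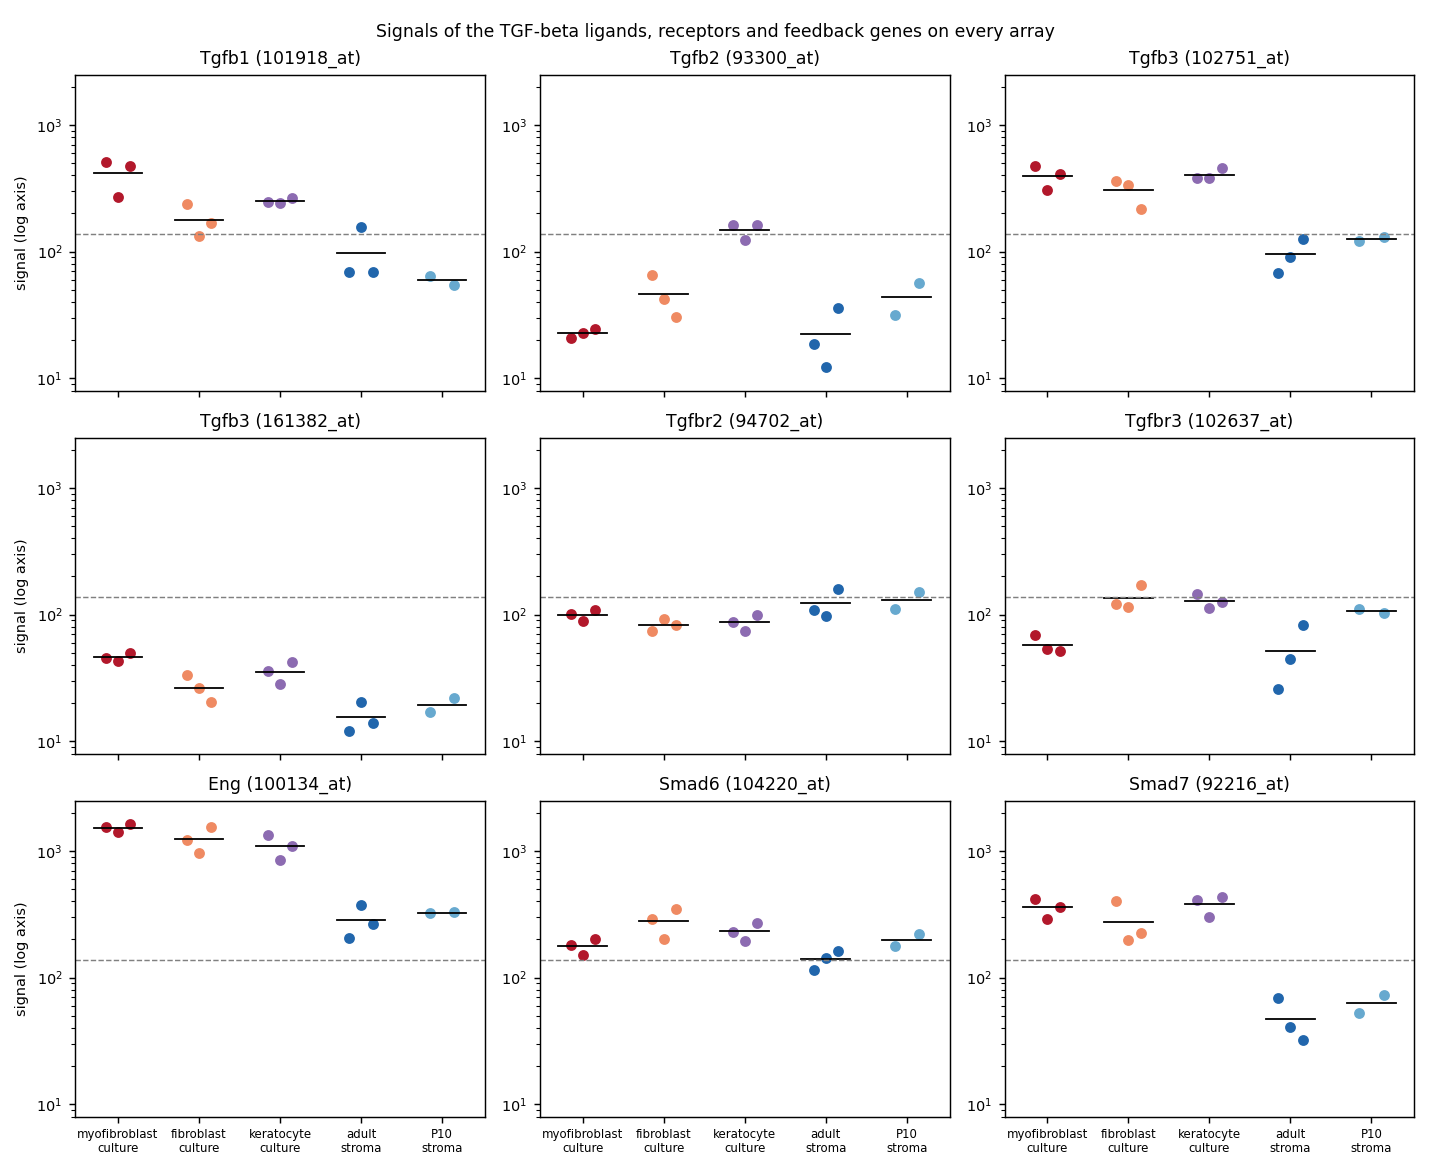
Signal of each of the 9 member probe sets (log axis) in the 14 arrays, from myofibroblast cultures on the left to P10 stroma on the right. Points are arrays, bars are group means and the dashed line is the background limit of 137.7. Eng, Smad7 and the 102751_at probe set of Tgfb3 were higher in every culture array than in every tissue array, while Tgfb2 passed the limit only in keratocyte cultures.

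Among the ligands, Tgfb1, the isoform that is added in myofibroblast cultures as protein, had its highest transcript signals in those cultures. Tgfb1 (101918_at) read 511, 268 and 473 in myofibroblast, 237, 132 and 167 in fibroblast and 247, 243 and 266 in keratocyte cultures. In tissue Tgfb1 read 68.9, 156 and 69.6 in adult and 63.8 and 54.8 in P10 stroma. Myofibroblast arrays lay above all arrays of the other groups, adult replicate 2 was the only tissue array above background, and the fibroblast and adult ranges overlapped. Group means were 417 ± 131, 179 ± 53.6 and 252 ± 12 in myofibroblast, fibroblast and keratocyte cultures and 98.3 ± 50.3 in adult stroma (SD, n = 3 each), and 59.3 ± 6.37 in P10 stroma (SD, n = 2). Of neighbours in the order of means, only fibroblast cultures and adult stroma differed past the threshold (log2 0.82 ± 0.29, adjusted p = 0.0476), and 10 of 15 alternative settings lost that call.

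Tgfb2, the isoform best known from the eye's anterior chamber, was brightest in the low-serum keratocyte cultures. Tgfb2 (93300_at) read 20.9, 22.9 and 24.5 in myofibroblast, 64.8, 42.5 and 30.7 in fibroblast and 161, 123 and 164 in keratocyte cultures. In tissue Tgfb2 read 18.6, 12.2 and 36.0 in adult and 31.7 and 56.3 in P10 stroma. Only 2 of the 14 arrays, keratocyte replicates 1 and 3, passed the background limit, and the keratocyte arrays lay above all others. Means were 22.8 ± 1.82, 46.0 ± 17.4 and 149 ± 22.8 in the 3 culture types, 22.3 ± 12.3 in adult stroma (SD, n = 3 each) and 44.0 ± 17.3 in P10 stroma (SD, n = 2). Below keratocyte cultures the other 4 groups followed in an order in which no neighbours differed past the threshold, the adjusted p being 0.948, 0.17 and 0.878.

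Tgfb3, the remaining isoform, was detected in every culture and in no tissue array. Its probe set 102751_at read 476, 308 and 411 in myofibroblast, 362, 338 and 218 in fibroblast and 379.6, 378 and 454 in keratocyte cultures. The same probe set read 68.2, 91.1 and 126 in adult and 122 and 129.5 in P10 stroma. All culture arrays lay above all tissue arrays, with means of 398 ± 84.5, 306 ± 77.3 and 404 ± 43.4 (SD, n = 3 each). The myofibroblast range overlapped both other culture types, and the fibroblast arrays lay below the keratocyte arrays. The second Tgfb3 probe set, 161382_at, did not pass the filter and was below background on every array: 45.7, 43 and 49.8 in myofibroblast, 33.1, 26.2 and 20.3 in fibroblast, 36.0, 28.6 and 41.9 in keratocyte cultures, 12.1, 20.3 and 14 in adult and 17.0 and 21.9 in P10 stroma. It too was higher in each culture array than in each adult array, but as signals within background this order carries no level.

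Of the receptors, Tgfbr2, the ligand-binding type II receptor, stayed near background throughout. Tgfbr2 (94702_at) read 100.4, 88.9 and 109 in myofibroblast, 74.0, 91.6 and 83.3 in fibroblast and 88.1, 73.7 and 99.5 in keratocyte cultures. In tissue it read 109.7, 98.2 and 159.9 in adult and 110.5 and 151 in P10 stroma. Of the tissue arrays 1 adult and 1 P10 passed the background limit, no culture array did, and no neighbours in the order of group means differed past the threshold (adjusted p from 0.355 to 0.969).

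Tgfbr3, the betaglycan co-receptor that binds all 3 ligands and favours Tgfb2, was dimmest in myofibroblast cultures and adult stroma. Tgfbr3 (102637_at) read 68.5, 53.7 and 51.5 in myofibroblast, 121, 114 and 171 in fibroblast and 145, 114 and 125 in keratocyte cultures. In tissue it read 26.0, 44.3 and 83.4 in adult and 111 and 102.5 in P10 stroma. Fibroblast replicate 3 and keratocyte replicate 1 alone passed the background limit. Means were 57.9 ± 9.25, 135 ± 31.1 and 128 ± 15.8 in the 3 culture types and 51.3 ± 29.3 in adult stroma (SD, n = 3 each), with 107 ± 6.02 in P10 stroma (SD, n = 2). No neighbouring groups in the order of means differed past the threshold (adjusted p from 0.0842 to 0.975).

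Eng, an endoglin co-receptor known best from vascular endothelium and also found on stromal cells, was detected on all 14 arrays. Eng (100134_at) read 1534, 1406 and 1634 in myofibroblast, 1222, 959 and 1549 in fibroblast and 1332, 855 and 1096 in keratocyte cultures. In tissue Eng read 206, 377 and 266 in adult and 323 and 329 in P10 stroma. The 9 culture arrays lay above the 5 tissue arrays. The fibroblast range overlapped both other culture types, and the myofibroblast arrays lay above the keratocyte arrays. Means were 1524 ± 114, 1243 ± 296 and 1094 ± 239 in the culture types, 283 ± 86.7 in adult (SD, n = 3 each) and 326 ± 4.31 in P10 stroma (SD, n = 2). Of neighbours by mean, keratocyte cultures and P10 stroma were the pair past the threshold (log2 1.68 ± 0.25, adjusted p = 0.000311).

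The inhibitory SMADs, both induced by the pathway they restrain, were both dimmest in adult stroma but shared their pattern only in part (r = 0.536). Smad7 (92216_at), the inhibitor of TGF-beta receptors, read 420.4, 292 and 364 in myofibroblast, 402, 197 and 225 in fibroblast and 407, 302 and 433 in keratocyte cultures. In tissue Smad7 read 69.6, 40.6 and 32.2 in adult and 52.7 and 72.5 in P10 stroma. All 9 culture arrays were above background and all 5 tissue arrays below it. Means were 359 ± 64.2, 275 ± 111 and 381 ± 69.3 in the culture types, 47.5 ± 19.6 in adult (SD, n = 3 each) and 62.6 ± 14 in P10 stroma (SD, n = 2). Of neighbours in the order of means, only fibroblast cultures, the lowest culture type, and P10 stroma, the higher tissue, differed past the threshold (adjusted p = 0.000611).

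Smad6 (104220_at), which acts mainly on BMP receptors, read 182, 152 and 200 in myofibroblast, 289, 202 and 348 in fibroblast and 231, 195 and 269.6 in keratocyte cultures. In tissue it read 115.5, 144 and 163 in adult and 177 and 221 in P10 stroma. Of the 14 arrays, 13 lay above background, adult replicate 1 was the exception, and the range of P10 stroma overlapped that of each culture type. Means were 178 ± 24.3, 279.5 ± 73.2 and 232 ± 37.3 in the culture types, 141 ± 24.1 in adult (SD, n = 3 each) and 199 ± 31.0 in P10 stroma (SD, n = 2), and no neighbours in the order of means differed past the threshold (adjusted p from 0.28 to 0.837).

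Keratocyte cultures were set against adult stroma, the tissue they came from. Low-serum culture and the mix of cells change together between these groups and cannot be told apart. Of the 8 members tested, 7 were higher and none lower, where 31.1% of all probe sets were called, 21.8% higher and 9.25% lower. Arrays did not overlap for 7 of 8 members, as for 43.2% of all probe sets. The median log2 difference was 1.61 over the 8 tested members and 0.12 over all probe sets. Smad7 had the smallest adjusted p and rose at least 2.55-fold (3.71e-06), beside Tgfb3 (at least 2.72-fold, adjusted p = 1.67e-05) and Tgfb2 (at least 1.07-fold, adjusted p = 2.29e-05). Eng rose by a log2 difference of 1.91 ± 0.23 (adjusted p = 1.72e-05) and Tgfb1 by 1.31 ± 0.29 (adjusted p = 0.00336). Tgfbr3 was called higher (adjusted p = 0.0028) with a mean under the background limit in both groups, so no fold is given. Smad6 rose by 0.66 ± 0.21 (adjusted p = 0.0257). That call was lost after centring each array (adjusted p = 0.0523) and without adult replicate 1, keratocyte replicate 1 or keratocyte replicate 3 (adjusted p = 0.103, 0.0677 and 0.115), within a range of 0.0225 to 0.115 over 15 alternatives.

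Tgfbr2 was the exception. It averaged 87.1 ± 12.9 in keratocyte cultures, against 123 ± 32.9 in adult stroma (SD, n = 3 each), with an adjusted p of 0.116. After centring and after quantile normalisation it was called lower in keratocyte cultures (adjusted p = 0.0188 and 0.0169, in a range of 0.0169 to 0.372), and in fibroblast cultures likewise (0.0321 and 0.0302). These scalings moved the median of all probe sets in keratocyte minus adult to -0.06 and -0.05, against 0.12 as deposited, and the members' median to 1.43 and 1.47.

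The 2 cultures in fetal bovine serum were compared with the same 3 adult arrays, so the 3 culture results share their reference. In fibroblast cultures 6 of 8 members were higher and none lower, where 30.8% of probe sets were called (18.4% higher and 12.3% lower). Arrays did not overlap for 6 of 8 members, as for 36.9% of all probe sets. Eng rose by 2.09 ± 0.23 (adjusted p = 6.72e-06), Smad6 by 0.89 ± 0.21 (adjusted p = 0.00448), Smad7 at least 1.81-fold (adjusted p = 2.66e-05) and Tgfb3 at least 2.05-fold (adjusted p = 0.000145). Tgfbr3 was called higher with its mean below the background limit (adjusted p = 0.002), and the sixth was Tgfb1, whose call is described above. It was lost without adult replicate 1 or 3 and without fibroblast replicate 1 or 3 (adjusted p = 0.173, 0.16, 0.184 and 0.0838), over a range of 0.00503 to 0.184. Tgfb2 missed the threshold (adjusted p = 0.0562) with both groups below background, and Tgfbr2 missed it too (0.0768).

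In myofibroblast cultures against adult stroma 4 of 8 members were higher and none lower, where 33% of probe sets were called (17.5% higher and 15.5% lower). Arrays did not overlap for 4 of 8 members, as for 40.9% of all probe sets. Eng rose by 2.40 ± 0.23 (adjusted p = 1.55e-06), Tgfb1 by 1.96 ± 0.29 (adjusted p = 0.000131), Smad7 at least 2.41-fold (adjusted p = 4.29e-06) and Tgfb3 at least 2.66-fold (adjusted p = 1.76e-05). Tgfb2, Tgfbr2, Tgfbr3 and Smad6 had adjusted p of 0.878, 0.355, 0.553 and 0.28. Members' median log2 differences were 1.11 in myofibroblast and 1.07 in fibroblast cultures, against -0.01 and 0.04 for all probe sets.

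Against P10 stroma, a contrast added after the data were seen, myofibroblast cultures had 4 of 8 members higher and none lower, where 21.5% of probe sets were called (7.84% higher and 13.7% lower). Fibroblast cultures had 4 higher and none lower, where 18% were called (7.97% higher and 10% lower), and keratocyte cultures 5 higher and none lower, where 15.4% were called (8.84% higher and 6.59% lower). The groups were free of overlap for 7, 6 and 7 members in these 3 contrasts, as for 55.3%, 49.5% and 54.3% of all probe sets. Tgfb1, Tgfb3, Eng and Smad7 were called in all 3 culture types and Tgfb2 in keratocyte cultures. Tgfb1 was at least 2.72-fold higher in myofibroblast cultures (adjusted p = 7.47e-05), at least 1.24-fold in fibroblast (0.0107) and at least 1.74-fold in keratocyte cultures (0.00125). Smad6 and Tgfbr3, called higher in fibroblast and keratocyte cultures against adult stroma, were not called against P10 stroma, where Smad6 had adjusted p of 0.227 and 0.639 and Tgfbr3 of 0.555 and 0.68.

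Markers of other cell types also differed between cultures and adult stroma. Among all probe sets, 17.5% were higher and 15.5% lower in myofibroblast, 18.4% and 12.3% in fibroblast and 21.8% and 9.25% in keratocyte cultures. Of the epithelial markers above, 25 of 26 were lower in each culture type. Of 18 macrophage markers, 3 were higher and 4 lower in myofibroblast cultures, near the shares of all probe sets. In fibroblast cultures 8 of these markers were higher and 1 lower, and in keratocyte cultures 11 higher and none lower. Their sum was 2067 to 3264, 2411 to 4422 and 5083 to 6198 in these culture types, against 1830 to 2431 in adult stroma. Of 12 vascular endothelial markers, relevant to Eng, 4 were higher and 1 lower in myofibroblast, 3 higher and none lower in fibroblast and 5 higher and none lower in keratocyte cultures, with summed signals of 1567 to 2144 in myofibroblast, 1381 to 1811 in fibroblast and 1719 to 2077 in keratocyte cultures, 920 to 1166 in adult and 1536 to 1593 in P10 stroma. Above background on every array were 3, 3 and 4 of the 12 in the 3 culture types, 3 in adult and 3 in P10 stroma. The endothelial cadherin Cdh5 averaged 5.25 ± 4.14 in myofibroblast and 47.7 ± 43 in fibroblast cultures, below background on every such array, where Eng read 959 or more, and 317 ± 63.6 in keratocyte cultures. The endothelial receptors Flt1 and Tie1, by contrast, were bright in those cultures. Flt1 averaged 618 ± 182 in myofibroblast and 435 ± 64.2 in fibroblast cultures, against 247 ± 49.8 in adult stroma (adjusted p = 0.000281 and 0.00913). Tie1 averaged 597.5 ± 282 and 466 ± 300.2, against 193 ± 58.4 (adjusted p = 0.043 and 0.147). The part of epithelial, macrophage or endothelial RNA in the results was not tested. Without adult replicate 1, 4 members were higher in myofibroblast, 5 in fibroblast and 6 in keratocyte cultures, where 26.5%, 24.8% and 26.4% of all probe sets were called.

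**Figure D2:**
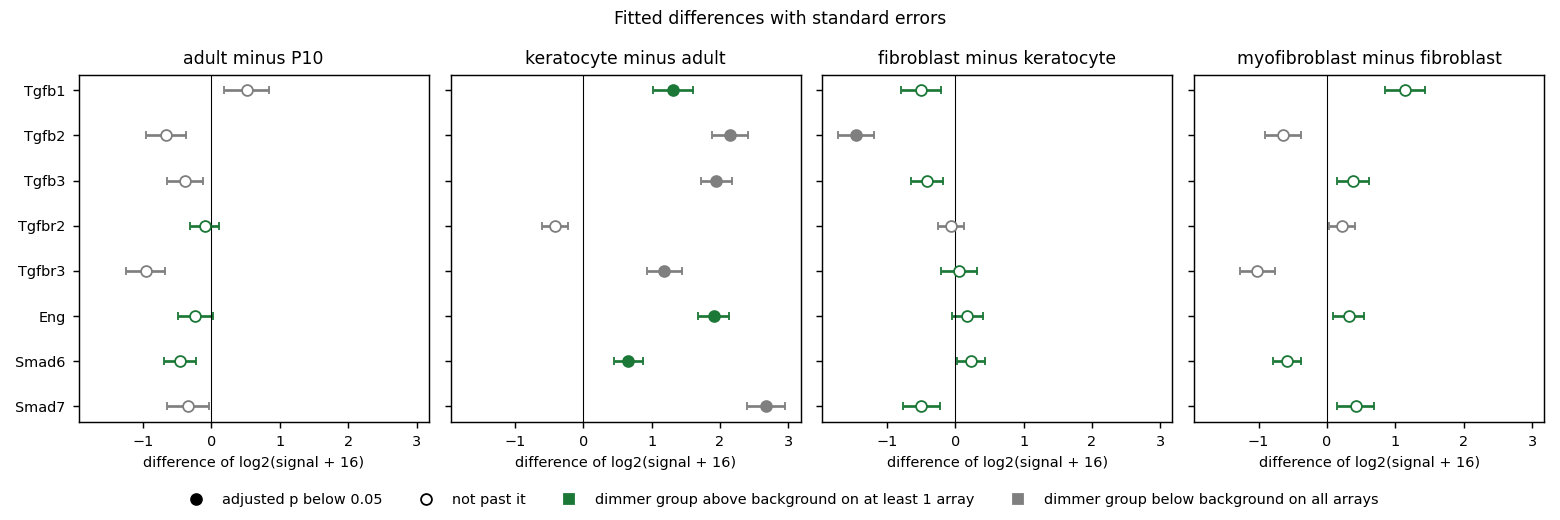
Log2 differences with standard errors for the 8 tested member probe sets in 4 comparisons. Filled points passed an adjusted p of 0.05, and grey points have a dimmer group below background on every array, so that their position depends on the background and the added 16. In keratocyte cultures minus adult stroma 7 of 8 points are filled, and 0, 1 and 0 in adult minus P10, fibroblast minus keratocyte and myofibroblast minus fibroblast.

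Between adult and P10 stroma none of the 8 members passed the threshold in limma, where 3.71% of probe sets were called (0.453% higher and 3.26% lower), and 2 had an unadjusted p below 0.05. Between the ages 3 of 8 members had no overlap of arrays, as had 31.1% of all probe sets. No call came from any of 14 alternatives except Tgfbr3 without adult replicate 3 (adjusted p = 0.00812). Tgfbr3 averaged 51.3 ± 29.3 in adult (SD, n = 3), against 107 ± 6.02 in P10 stroma (SD, n = 2), both below background, with an adjusted p of 0.0879. Tgfb2, the other with a low unadjusted p, also lay below background at both ages (adjusted p = 0.3). Eng differed by -0.23 ± 0.25 and Smad6 by -0.46 ± 0.23 (adjusted p = 0.764 and 0.39). Members' median log2 difference was -0.36, against -0.12 over all probe sets.

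Fibroblast against keratocyte cultures set 10% fetal bovine serum against 1% platelet-poor horse serum. The kind and the amount of serum change together and cannot be told apart. Tgfb2 was lower in fibroblast cultures, and no other of the 8 members was called, where 1.37% of probe sets were called (0.193% higher and 1.18% lower). Arrays did not overlap for 3 of 8 members, as for 15.1% of all probe sets. The 3 fibroblast arrays of Tgfb2, 30.7 to 64.8, lay below the 3 keratocyte arrays, 123 to 164, and keratocyte cultures were at least 1.07-fold higher (adjusted p = 0.0166). This call was lost in 6 of 15 alternatives, among them an added value of 1 (adjusted p = 0.0578), the fit of these 2 groups alone (0.0729) and leaving out fibroblast replicate 3 or keratocyte replicate 1 or 3 (0.0715, 0.0974 and 0.115), with a range of 0.00276 to 0.115. Tgfb1, Tgfb3 and Smad7 had log2 differences of -0.50 ± 0.29, -0.41 ± 0.23 and -0.50 ± 0.27 (adjusted p = 0.712, 0.692 and 0.68), and Eng and Smad6 of 0.18 ± 0.23 and 0.23 ± 0.21 (0.896 and 0.837). Cdh5 and the endothelial sialomucin Emcn differed in the direction of Tgfb2, Cdh5 at 47.7 ± 43 in fibroblast against 317 ± 63.6 in keratocyte cultures and Emcn at 106 ± 63.5 against 235 ± 19.4 (SD, n = 3 each). Cdh5 passed the threshold (limma adjusted p = 0.0155) and Emcn did not (0.127), and their part in the Tgfb2 result was not tested. Cldn5, another endothelial gene, averaged 33.9 ± 6.28 against 86.5 ± 9.77, below background (adjusted p = 0.0749). Tie1, Flt1 and Sox17, further endothelial markers, had log2 differences of 0.77, -0.01 and 0.05 (adjusted p = 0.761, 0.996 and 0.969). Over the marker lists 0 of 12 endothelial markers were higher and 1 lower in fibroblast cultures, and 6 of 18 macrophage, 4 of 5 pigment cell, 2 of 26 epithelial, 1 of 10 keratocyte and 1 of 8 smooth muscle and pericyte markers were lower, with a macrophage sum of 2411 to 4422 against 5083 to 6198.

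Myofibroblast cultures against fibroblast cultures ask what added TGF-beta1 did in the same serum. None of the 8 members passed the threshold without pairing, where limma called 1.07% of probe sets (0.289% higher and 0.781% lower), and 4 had an unadjusted p below 0.05 (Tgfb1, Tgfb2, Tgfbr3 and Smad6). Tgfb1 was higher in myofibroblast than in fibroblast cultures on all arrays, with a log2 difference of 1.14 ± 0.29 (adjusted p = 0.103). Same-numbered cultures deviated together over all probe sets (r = 0.623, 0.682 and 0.533), and in a fit of these 2 groups with the replicate number as a block Tgfb1 passed (1.14 ± 0.12, adjusted p = 0.0187), the only one of 8 members, where that fit called 2.03% of probe sets (0.608% higher and 1.42% lower). Nothing in the labels says what a replicate number marks, and the pairs were inferred from these same arrays. Tgfb1 read 511 in myofibroblast against 237 in fibroblast replicate 1, 268 against 132 in replicate 2 and 473 against 167 in replicate 3. As the groups did not overlap, Tgfb1 is higher under any pairing. It was also called after centring, after quantile normalisation and without myofibroblast replicate 2 (adjusted p = 0.0471, 0.044 and 0.0425), in a range of 0.0187 to 0.4 over 15 alternatives.

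Tgfbr3 and Smad6 lay lower in myofibroblast than in fibroblast cultures without overlap, at 51.5 to 68.5 against 114 to 171 for Tgfbr3 and at 152 to 200 against 202 to 348 for Smad6. Both missed the threshold without pairing (adjusted p = 0.091 and 0.354) and with the block (0.0563 and 0.0726). Smad7, the feedback inhibitor of the added ligand's receptor, was higher in 3 of 3 pairs, by a log2 difference of 0.42 ± 0.27 (adjusted p = 0.844, and 0.178 with the block). Eng was likewise higher in 3 of 3 pairs, by 0.31 ± 0.23 (0.871, and 0.202 with the block). Tgfb3 was higher in 2 of 3 pairs, by 0.38 ± 0.23 (0.815, and 0.325 with the block). Groups did not overlap for 4 of 8 members, as for 12.3% of all probe sets. Of the marker lists, 2 of 10 keratocyte and 1 of 18 macrophage markers were lower and 1 of 12 endothelial markers higher in myofibroblast cultures without pairing. In the fit with the block, which called Tgfb1, 4 of 10 keratocyte and 2 of 18 macrophage markers were lower and 1 of 12 endothelial markers higher, and their part was not tested.

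**Figure D3:**
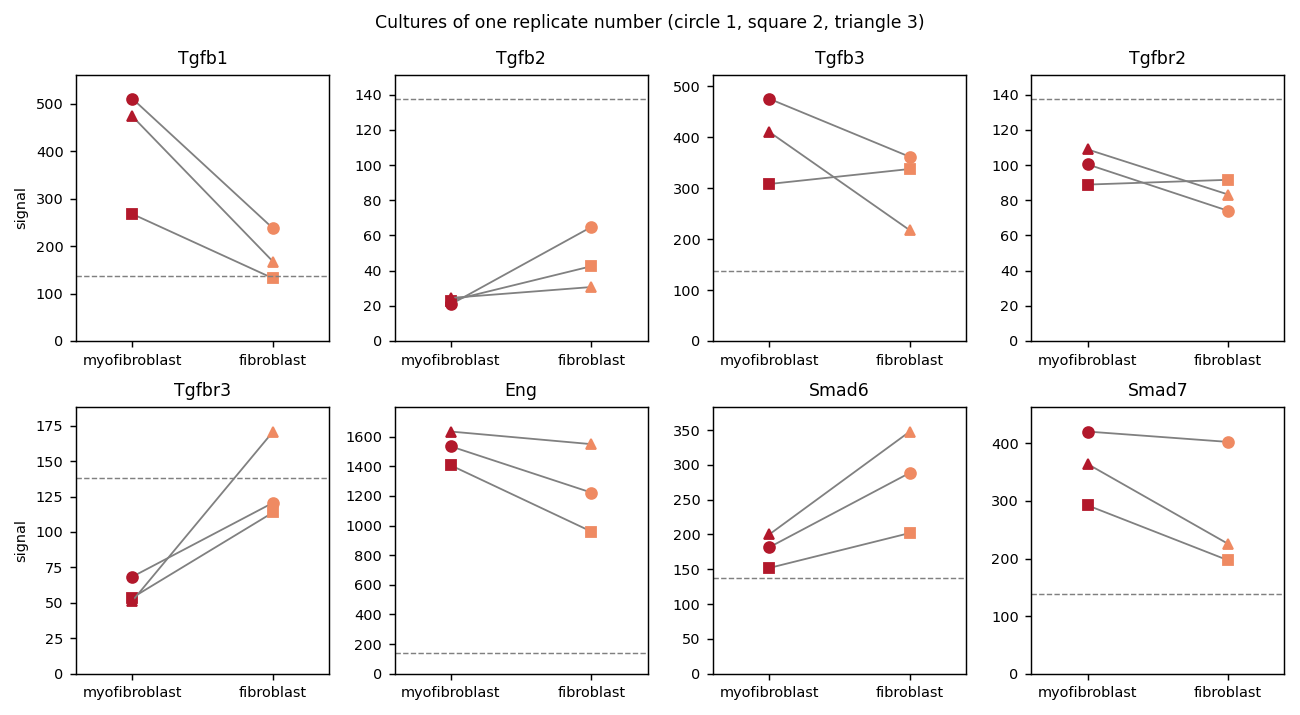
Signals of the 8 tested members in myofibroblast (left) and fibroblast cultures (right), with lines joining cultures of one replicate number and a dashed line at the background limit of 137.7. Tgfb1, Eng and Smad7 are higher in the myofibroblast culture of all 3 pairs, and Tgfb2, Tgfbr3 and Smad6 lower.

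Myofibroblast against keratocyte cultures combine serum and TGF-beta1. Of 8 members 2 were lower and none higher, where 5.98% of probe sets were called (1.1% higher and 4.88% lower). Arrays did not overlap for 4 of 8 members, as for 27.9% of all probe sets. Tgfb2 fell to 20.9 to 24.5 in myofibroblast cultures, against 123 to 164 in keratocyte cultures, which were at least 1.07-fold higher (adjusted p = 0.000263), and all 15 alternatives kept the call. Tgfbr3, below background in myofibroblast cultures, was called lower (adjusted p = 0.0402) but lost the call in 9 of 15 alternatives, with a range of 0.00937 to 0.174, including the removal of any single one of the 6 arrays (0.053 to 0.174). Tgfb1 averaged 417 ± 131 against 252 ± 12 (log2 0.64 ± 0.29, adjusted p = 0.242) and Eng 1524 ± 114 against 1094 ± 239 (0.49 ± 0.23, adjusted p = 0.248), with no overlap of arrays (SD, n = 3 each). In the same comparison 10 of 18 macrophage, 4 of 5 pigment cell, 4 of 10 keratocyte and 2 of 8 smooth muscle and pericyte markers were lower and none higher, and 4 of 12 endothelial and 4 of 26 epithelial markers lower with 1 of each higher. The macrophage sum was 2067 to 3264 in myofibroblast against 5083 to 6198 in keratocyte cultures, and Cdh5 averaged 5.25 ± 4.14 against 317 ± 63.6. Their part in the Tgfb2 and Tgfbr3 results was not tested.

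The wider pathway was read from lists chosen from general knowledge of the system, but with earlier results of these data known. Their counts describe these arrays and are not an independent test. Latency and activation genes store the ligand in matrix and release it. Of 15 tested, 7 were higher and 1, Tgm2, lower in keratocyte cultures than in adult stroma. Of all probe sets, 21.8% were higher and 9.25% lower there. In adult against P10 stroma 1 was higher and 3 lower, where 0.453% and 3.26% of all probe sets were. In fibroblast against keratocyte cultures 1 was higher (0.193% of all), and in myofibroblast against fibroblast cultures 1 lower (0.781% of all). Without adult replicate 1 the keratocyte minus adult count was 8 higher and 0 lower, so that the Tgm2 call was lost. Ltbp1, a latent TGF-beta binding protein, averaged 302 ± 80.4 in keratocyte cultures against 25.8 ± 16.1 in adult stroma (at least 2.02-fold higher, adjusted p = 3.41e-05), and Ltbp2 570.1 ± 59.8 against 127 ± 36.5 (log2 2.06, adjusted p = 0.000435). Itgb5, an integrin subunit that takes part in activation, averaged 954 ± 269 against 372 ± 86.6 (1.30, adjusted p = 0.0041). Thbs2, a matricellular thrombospondin that, unlike Thbs1, does not activate the latent ligand, averaged 761 ± 257 against 98.1 ± 3.88 (at least 4.86-fold, adjusted p = 8.46e-06). Thbs2 was the called gene in both comparisons in serum, at 2660 ± 920 in fibroblast against 761 ± 257 in keratocyte cultures (log2 1.78, adjusted p = 0.0102) and 1006 ± 370 in myofibroblast against 2660 ± 920 in fibroblast cultures (-1.39, adjusted p = 0.0402). With the replicate block Ltbp1 was lower too (112 ± 52.2 against 250 ± 118, adjusted p = 0.0241) and Itgb5 higher (1485 ± 502 against 855 ± 284, adjusted p = 0.0223), both named for this comparison after their values were seen.

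With age, Ltbp4 was lower in adult than in P10 stroma, at 221 ± 76.1 against 922 ± 71.6 (log2 -2.03, adjusted p = 0.00313), as was Thbs2 at 98.1 ± 3.88 against 477 ± 86.0, at least 3.18-fold (adjusted p = 0.0025). Tgm2, a crosslinking transglutaminase, was higher in adult stroma, at 1235 ± 522 against 118 ± 0.259 (SD, n = 3 and n = 2), at least 7.55-fold (adjusted p = 0.00117).

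Of 14 other receptors and SMADs, 4 were higher and none lower in keratocyte cultures than in adult stroma, where 21.8% of all probe sets were higher, and none was called in either serum comparison, with the block included. Smad1, a BMP-pathway SMAD, averaged 406 ± 34.5 in keratocyte cultures against 178 ± 48.2 in adult stroma (log2 1.15, adjusted p = 0.001). The other 3 were Tgfbr1, Acvr1 and Smad5, named after their values were seen, all below background in both groups. Tgfbr1, the type I receptor, averaged 104 ± 24.6 against 46.0 ± 5.46 (adjusted p = 0.00637) and was also the called gene between ages, lower at 46.0 ± 5.46 in adult than at 123 ± 24.5 in P10 stroma (adjusted p = 0.0218).

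Of 11 negative regulators, 8 were higher and none lower in keratocyte cultures than in adult stroma, and 3 lower in adult than in P10 stroma. Of all probe sets, 21.8% were higher in the first of these comparisons and 3.26% lower in the second. Fkbp1a, which binds the type I receptor, averaged 1271 ± 164 in keratocyte cultures against 159 ± 15.3 in adult stroma (log2 2.87, adjusted p = 2.5e-07). The ligand-binding proteoglycans Bgn and Fmod averaged 4777 ± 378 against 814 ± 198 (2.55, adjusted p = 9.58e-09) and 2557 ± 198 against 229 ± 44.2 (3.41, adjusted p = 2.42e-07), and Dcn 5285 ± 428 against 3491 ± 292 (0.60, adjusted p = 0.00113). Fkbp1a, Bgn and Fmod were the 3 lower in adult than in P10 stroma, by -1, -1.27 and -1.53 (adjusted p = 0.0409, 0.000628 and 0.00945). Skil, a SMAD corepressor induced by TGF-beta, was the one called in myofibroblast against fibroblast cultures, higher at 102 ± 18.8 against 33.6 ± 9.62 (adjusted p = 0.0177), both below background, and it was named after its values were seen.

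Of 29 genes known to respond to TGF-beta through SMAD3, 23 were higher and 3 lower in keratocyte cultures than in adult stroma. Of all probe sets, 21.8% were higher and 9.25% lower there. The median log2 difference of the 29 was 2, against 0.12 over all probe sets. Lox, a collagen crosslinking oxidase, was at least 18.3-fold higher (2796 ± 86.7 against 37.8 ± 23.2, adjusted p = 2.28e-10) and the actin crosslinker Actn1 at least 17.4-fold (2663 ± 221 against 96.7 ± 4.95, adjusted p = 2.37e-11). The protease inhibitor Timp1 averaged 5074 ± 330.3 against 127 ± 23.2 (5.16, adjusted p = 8.85e-12). Between ages 1 was higher and 11 lower in adult than in P10 stroma, where 0.453% and 3.26% of all probe sets were. The median was -0.89, against -0.12 over all probe sets. Among those lower was Col1a1 at 2882 ± 58.8 against 6640 ± 404 (-1.20, adjusted p = 0.000195).

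In fibroblast against keratocyte cultures, where 1.18% of all probe sets were lower and 0.193% higher, 2 of these 29 were lower and none higher. These were the cell-cycle inhibitor Cdkn1a (243 ± 49.7 against 736 ± 63.3, log2 -1.55, adjusted p = 0.00195) and the transcription factor Tsc22d1 (822 ± 239 against 1768 ± 181, -1.13, adjusted p = 0.017). In myofibroblast against fibroblast cultures, where 0.289% of all probe sets were higher and 0.781% lower, 2 of the 29 were higher and none lower. The cell-cycle inhibitor Cdkn2b averaged 238 ± 65.2 against 36.2 ± 7.82 (at least 1.61-fold, adjusted p = 0.00046) and the transcriptional repressor Bhlhe40 585 ± 83.4 against 210.2 ± 112 (1.55, adjusted p = 0.035). With the block, which called 0.608% of all probe sets higher, the count was 4. These were Cdkn2b and, named after their values were seen, Sphk1, Vcan and Itga5 (adjusted p = 0.0157, 0.0434, 0.0156 and 0.046). Acta2, the smooth muscle actin that defines myofibroblasts, averaged 2983 ± 69.1 against 2046 ± 1236, with 638 on the lowest fibroblast array, and missed the threshold (adjusted p = 0.716). Acta2 was also high in keratocyte cultures, at 2983 ± 69.1 in myofibroblast against 3193 ± 142 in keratocyte cultures (log2 -0.10, adjusted p = 0.934). Keratocyte cultures had at least 20.9-fold more Acta2 signal than adult stroma (56 ± 14.3, adjusted p = 2.19e-07). SDs here are of 3 arrays a group, and of 2 for P10 stroma.

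**Figure D4:**
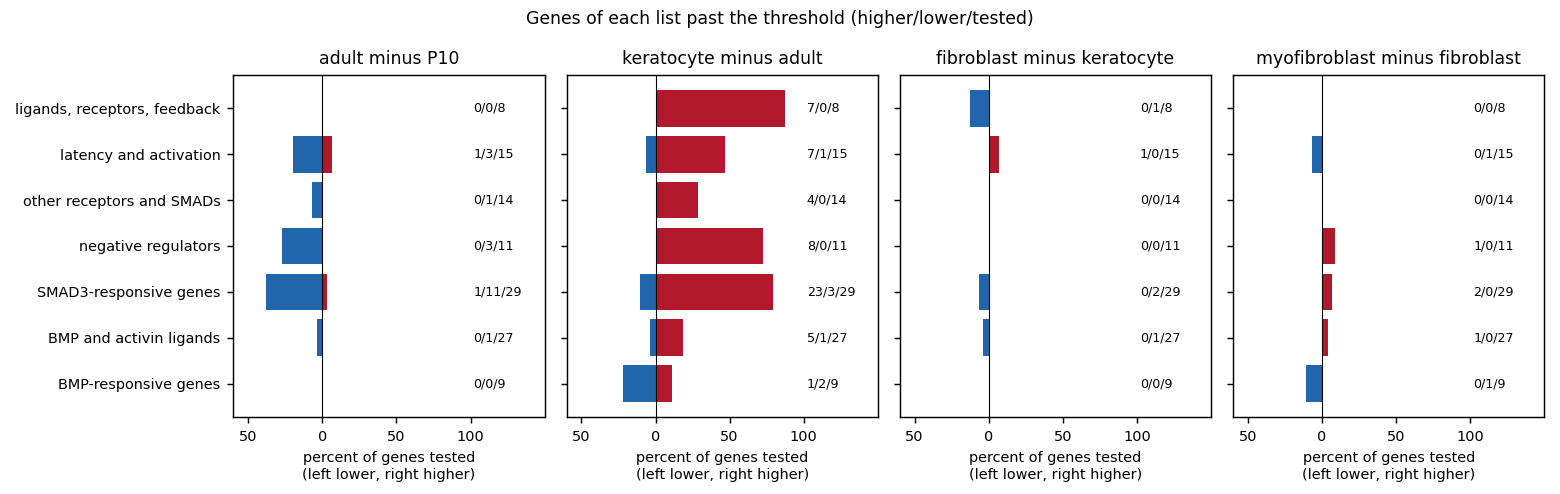
Share of the tested genes of each list called higher (right, red) or lower (left, blue) in 4 comparisons, in percent, with the counts higher, lower and tested at the right of each bar. In keratocyte cultures minus adult stroma 7 of 8 members and 23 of 29 SMAD3-responsive genes were higher, where 21.8% of all probe sets were. Of negative regulators 8 of 11 and of latency and activation genes 7 of 15 were higher there. The other bars there are shorter, with 4 of 14 other receptors and SMADs, 5 of 27 BMP and activin and 1 of 9 BMP-responsive genes higher. Bars are short in the comparisons between cultures.

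Over the 14 arrays, which share their 5 groups, members fell into unlike patterns. The highest correlations of log2(signal + 16) between members were of Tgfb3 with Smad7 (r = 0.933), Eng with Smad7 (0.918) and Tgfb3 with Eng (0.902), and Tgfbr3 went with Smad6 (0.848). Tgfb1 and Tgfb2 had r = 0.145, and Tgfbr2 was below 0 with all 7 others (-0.258 to -0.664).

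Likeness to each member, by Pearson r over the 14 arrays, was sought among the other kept probe sets with 1 symbol. The 3 most like were Ak1, Lox and Akr1b8 for Tgfb1 (0.936 to 0.941), Tagln, Pdlim7 and Fkbp1a for Tgfb3 (0.973 to 0.974), Praf2, Serpinf1 and Fzd2 for Eng (0.978 to 0.981) and Phldb2, Tes and Adam19 for Smad7 (0.981 to 0.990). Smad6 and Tgfbr3 shared Ptges (0.948 and 0.907), followed by Sirpa and D17H6S56E-5 for Smad6 and preceded by Gab1 and Cdc5l for Tgfbr3. Tgfbr2 was most like Sh3bgr, Adck1 and Pnck (0.915 to 0.921). Tgfb2 was most like Emcn (0.970), Bmp2 (0.969) and Mab21l2 (0.956). Bmp2, a ligand of the BMP branch, read 5.80 to 10.0 in myofibroblast, 12.2 to 17.8 in fibroblast and 62.0 to 74.1 in keratocyte cultures, 6.15 to 15.8 in adult and 12.7 to 21.5 in P10 stroma, below background on every array. This Emcn probe set (93884_at) reached 142 in keratocyte cultures, and Mab21l2, a gene of eye development, read 176 to 236 there.

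**Figure D5:**
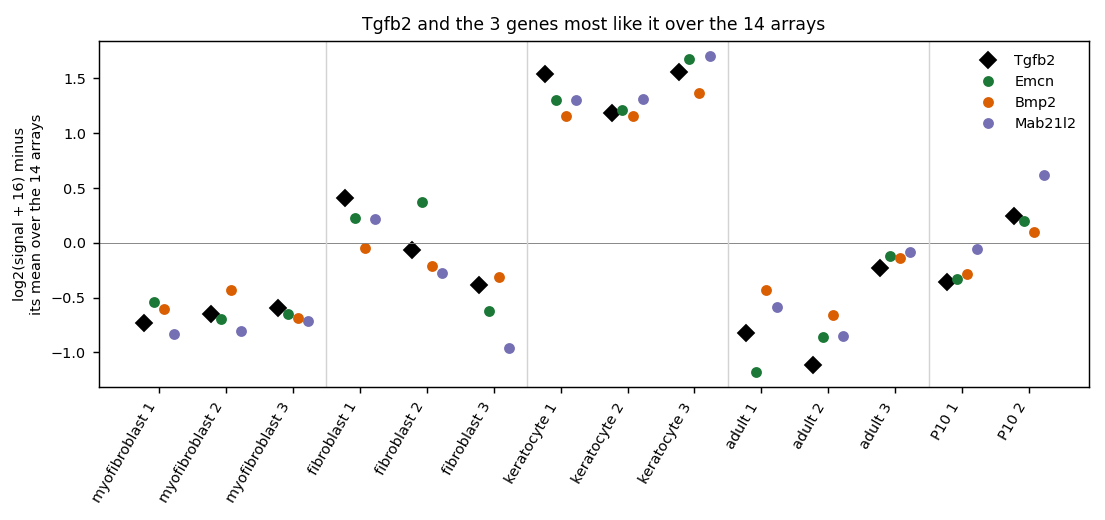
Log2(signal + 16) of Tgfb2 and of the 3 genes most like it, each minus its own mean over the 14 arrays, by array from myofibroblast replicate 1 to P10 replicate 2. All 4 genes are highest on the 3 keratocyte arrays and below their mean on the 3 myofibroblast and 3 adult arrays.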

How the data were processed

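Total RNA (5 µg per array) from 14 samples was hybridised to single-colour arrays. The deposited values are signal intensity on a linear scale, computed with Microarray Suite 5.0 and scaled per array to a target of 150, per the labels. The labels do not state how signals at the floor of 1 were set, and no member value lay there. Of 12488 probe sets 66 controls were removed, and 10370 of 12422 passed the filter (mean of 50 or more in at least 1 group). Platform annotation gave 10833 probe sets 1 symbol, 396 several and 1193 none, and only the first were named.

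Groups came from the labels. One mean per group was fitted over all 14 arrays (9 residual degrees of freedom) with limma 3.58.1 in R 4.3.3 on log2(signal + 16), with a variance trend. The fit without pairing was run on simulated data with independent noise on each array. That run did not cover the replicate block. Arrays carry no read depth, so their number limits precision.

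The members and the 6 pathway and 8 marker lists were chosen with earlier results of these data known. All members are named. Of each list and comparison, up to 4 called genes of smallest adjusted p with a group mean above background are named, and the 3 probe sets of highest r for each member. Genes outside this rule were named after their values were seen, whether or not the text says so where they stand. These include Emcn, Cldn5, Tie1, Flt1 and Sox17 in fibroblast against keratocyte cultures, and Acta2 in the comparisons between cultures. A gene of a list with several probe sets stands by the brightest.

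Replicate numbers were taken to pair myofibroblast with fibroblast cultures, because deviations from the group means correlated above 0.1 in all 3 pairs. That held in no other comparison of 3 pairs. It did hold for both numbers shared by P10 stroma with keratocyte cultures (r = 0.295 and 0.139) and with fibroblast cultures (0.219 and 0.193). Those cultures came from mice of another age, so a correlation above 0.1 does not by itself mark a pair. Alternatives changed the added value, filter, scaling, variance trend, arrays fitted and pairing, or left out an array.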

Additional observations from a re-analysis of the deposited data

How the results depend on the processing

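Over 56 member differences, 832 alternative values were computed, of which 768 kept direction and side of the threshold, 15 newly passed it, 29 lost it and 20 changed sign, none of these called. The count of members called between fibroblast and keratocyte cultures was 1, and 0 with an added value of 1, with only the 2 groups and with the replicate block, and 0 to 1 leaving out single arrays. Between myofibroblast and fibroblast cultures it was 0, and 1 (Tgfb1) after centring, after quantile normalisation and with the replicate block, and 0 to 1 leaving out single arrays. Between myofibroblast and keratocyte cultures it was 2, and 1 with an added value of 1, after centring, after quantile normalisation and without any single array. Between adult and P10 stroma it was 0, and 0 to 1 leaving out single arrays. Counts against adult stroma ranged over 6 to 8 for keratocyte, 5 to 8 for fibroblast and 4 for myofibroblast cultures. Where samples were not shown to pair, the block left other counts within 1.5 times.

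The log2 differences that changed sign were small. After centring and after quantile normalisation, Smad7 was 0.099 and 0.112 and Tgfb3 0.144 and 0.159 in myofibroblast minus keratocyte cultures, and Tgfbr2 0.076 and 0.081 in adult minus P10 stroma and 0.062 and 0.064 in fibroblast minus keratocyte cultures. Leaving out single arrays gave -0.232 to 0.054 for Smad7 and -0.17 to 0.131 for Tgfb3 in myofibroblast minus keratocyte cultures, above 0 without keratocyte replicate 3 or myofibroblast replicate 2. It gave -0.298 to 0.106 for Tgfbr2 in adult minus P10 stroma (above 0 without adult or P10 replicate 2) and -0.152 to 0.03 in fibroblast minus keratocyte cultures (above 0 without fibroblast replicate 1 or keratocyte replicate 3). Tgfbr3 ranged over -0.107 to 0.156 in fibroblast minus keratocyte cultures (below 0 without fibroblast replicate 3 or keratocyte replicate 2) and -0.075 to 0.546 in myofibroblast minus adult (below 0 without adult replicate 1), and Tgfb2 over -0.132 to 0.31 there (below 0 without adult replicate 2). The cause was not tested. Centring moved the members' median in myofibroblast minus keratocyte cultures to 0.12, against -0.06 as deposited. List counts under the alternatives, and counts without adult replicate 1, were added after seeing the data, and the SMAD3-responsive count in keratocyte minus adult was 23 to 24 higher and 2 to 3 lower. Other list counts moved by over 1.5 times or lost every call. In adult minus P10 stroma the lower calls were 3 (1 to 4) for negative regulators, 3 (1 to 3) for latency genes and 1 (0 to 1) for other receptors. In keratocyte minus adult the higher calls were 8 (5 to 8), 7 (5 to 8) and 4 (2 to 4) for the same lists and 5 (3 to 8) for BMP and activin genes. In fibroblast minus keratocyte cultures latency genes had 1 higher (0 to 1), SMAD3-responsive genes 2 lower (1 to 3) and BMP and activin genes 1 lower (0 to 1). In myofibroblast minus fibroblast cultures SMAD3-responsive genes had 2 higher (1 to 4), latency genes 1 lower (0 to 2), negative regulators 1 higher (0 to 1), BMP and activin genes 1 higher (0 to 1) and BMP-responsive genes 1 lower (0 to 3). Tgfb2, Tgfbr2 and Tgfbr3 lay near or below background in most groups, which limits what their differences show.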

Other observations

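The BMP and activin branch shares SMAD4 with TGF-beta. Of 27 BMP and activin ligands and antagonists, 5 were higher and 1 lower in keratocyte cultures than in adult stroma. Of all probe sets, 21.8% were higher and 9.25% lower there. In adult against P10 stroma 1 was lower (3.26% of all), as in fibroblast against keratocyte cultures (1.18% of all). In myofibroblast against fibroblast cultures 1 was higher (0.289% of all). The last was Inhba, the activin A subunit, at 322 ± 33.3 in myofibroblast against 136 ± 47.3 in fibroblast cultures (SD, n = 3 each, log2 1.20, limma adjusted p = 0.0167), but it was not called with the replicate block. Fstl1, a follistatin-like secreted protein, averaged 3502 ± 312 in keratocyte cultures against 408 ± 223 in adult stroma (3.17, adjusted p = 2.5e-06).

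Of 9 BMP-responsive genes, 1 was higher and 2 lower in keratocyte cultures than in adult stroma. Of all probe sets, 21.8% were higher and 9.25% lower there. Id3, an inhibitor of basic helix-loop-helix factors, was the higher one, at 892 ± 67.4 against 121 ± 21.6 (2.74, adjusted p = 9.87e-08). The lower ones, Id4 and Dlx5, had means below background in both groups. Between myofibroblast cultures and adult stroma 2 of the 9 were higher and 4 lower, where 17.5% and 15.5% of all probe sets were. Id3 was lower in myofibroblast than in fibroblast cultures, at 562 ± 81.2 against 1075 ± 225 (-0.90, adjusted p = 0.0413). It was the 1 of 9 called, where 0.289% of all probe sets were higher and 0.781% lower. With the replicate block Id1, Id2 and Id3 were lower there (adjusted p = 0.035, 0.0172 and 0.0223) and the other 6 of the 9 were not called. That fit called 0.608% of all probe sets higher and 1.42% lower. Id1 averaged 346 ± 56.8 in myofibroblast against 546 ± 111 in fibroblast cultures, and Id2 251 ± 127 against 749 ± 291. Smad6, a BMP-induced inhibitor, had its adjusted p of 0.0726 in that same fit, and Id1 and Id2 were named after their values were seen.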
